A study of Rattus norvegicus with 12 samples.

Results

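The 10 genes described here encode the core of the BCL2 family, the proteins that decide whether the outer mitochondrial membrane of a cell stays closed. They were taken by symbol from a count table of 30562 rat genes, and each symbol had 1 row. They comprise the pore-forming effectors Bax and Bak1, the pro-survival proteins Bcl2, Bcl2l1 and Mcl1, and the BH3-only proteins Bad, Bbc3, Bcl2l11, Bid and Pmaip1. Bulk RNA-seq was carried out on primary oligodendrocyte precursor cells (OPCs), the glial cells that give rise to oligodendrocytes, from the cortices of wild-type Sprague-Dawley rats at postnatal day 1 or 2. Mild-hypo-OPCs were kept at an FiO2 (oxygen fraction of the gas) of 5% and standard OPCs received no hypoxic exposure, with 6 libraries each. The labels give an exposure of 6 hours, whereas the methods of the study describe 6 days. Cells of both groups were grown with FGF-2 and PDGF-AA. Nothing in the labels says that the 6 libraries of a group came from separate cultures, and the study describes 3 biological replicates, so that the errors and p-values below measure the spread between libraries, which may be technical.

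In the intrinsic pathway of apoptosis, BAX and BAK assemble into pores that release cytochrome c from mitochondria, and the released protein starts the caspase cascade. BCL2, BCL-XL (the product of Bcl2l1) and MCL1 hold the effectors in check. BH3-only proteins sense damage or loss of growth factors and either occupy the pro-survival proteins or act on the effectors. In the oligodendrocyte lineage, cells that do not obtain enough survival factor are known to be removed by this pathway as they differentiate.

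The mild-hypo libraries held 4111669 to 9022324 counts and the standard libraries 1356079 to 2797513, so sequencing depth and condition cannot be told apart. Values are CPM, the counts of a gene scaled to a common library total, after TMM scaling, with factors of 1.08 to 1.23 and 0.809 to 0.945 respectively. The filter, a CPM over 10 in 1 or more libraries, left 8938 genes. Among these, edgeR's quasi-likelihood test with Benjamini-Hochberg adjustment called 626 genes higher and 1520 lower in mild-hypo-OPCs (adjusted p under 0.05). Of these calls 29.2% were higher, against 47.5% with upper-quartile scaling and 93.2% with library size only, under which the median over all tested genes shifted from 0.00 to 0.43 on the log2 scale. The OPC markers summed to 2550 to 2868 CPM in mild-hypo-OPCs and 2271 to 2843 CPM in standard OPCs, and all 6 of them were expressed above the filter.

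Of the 10 genes, 7 passed the filter. Bax and Bad were lower in mild-hypo-OPCs, and the other 5 tested genes did not pass the test in either direction. The share called lower among all tested genes was 17.0%, and the share called higher was 7.00%. By edgeR the count of members called higher was 0, with 1 at an unadjusted p under 0.05 (Bak1), and limma-voom and DESeq2 also called 0 higher and the same number, 2, lower. With upper-quartile scaling 1 member was called higher and 2 lower, where 12.7% and 14.0% of all genes were. With library size only 3 were called higher and 1 lower, where 61.7% and 4.53% of all genes were. The 7 genes had a median log2 fold change of -0.08, beside 0.00 for all genes tested. Bcl2, Bid and Pmaip1 stayed below the filter, with maximum unscaled CPM values of 6.25, 9.44 and 0.871.

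Bax (ENSRNOG00000020876), the effector that moves from the cytosol to mitochondria when activated, had the lowest p of the family. Its level ran from 39.8 to 55.5 CPM (median 50.9) in mild-hypo-OPCs, against 68.8 to 114 CPM (median 93.5) in standard OPCs. All mild-hypo libraries lay below all standard libraries, a separation in this direction seen for 5.40% of the genes tested. No member separated in the other direction, as 2.94% of the genes tested did. The means were 48.8 ± 6.00 and 91.5 ± 17.6 CPM (SD, n = 6 each). The log2 fold change was -0.90 (SE 0.12, 95% interval -1.16 to -0.63, edgeR adjusted p = 0.000143), which put Bax mRNA at 53.7% of its level in standard OPCs. A larger decrease was found for 314 of the tested genes. In replicates 1 to 3 alone Bax fell by 0.74 on the log2 scale and in replicates 4 to 6 alone by 1.03 (edgeR adjusted p = 0.0124 and 4.26e-06). The labels do not make these subsets separate experiments, and the groups differed in depth within both. In bulk RNA, fewer cells expressing a gene and less of its RNA per cell cannot be told apart.

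The Bax call was not present once depth entered the model: with the log2 of the total count as a term it had a log2 fold change of -0.23 (SE 0.20, edgeR adjusted p = 0.873). In that fit the standard error was wider and 43 of all genes tested were called lower.

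Bak1 encodes the second effector, which resides in the mitochondrial membrane and can replace BAX in many cells. Its level ran from 47.4 to 58.6 CPM (median 50.3) in mild-hypo-OPCs, against 33.9 to 55.8 CPM (median 42.7) in standard OPCs. Of the standard libraries, 5 lay below every mild-hypo library, and replicate 1 did not. The means were 51.9 ± 4.57 and 43.2 ± 7.31 CPM (n = 6 each). The log2 fold change was 0.25 (SE 0.11, 95% interval 0.01 to 0.49), and Bak1 did not pass the test (edgeR adjusted p = 0.0955). It passed without standard replicate 1 (0.36, edgeR adjusted p = 0.0121), with upper-quartile scaling (0.32, edgeR adjusted p = 0.0345) and with library size only (0.68, edgeR adjusted p = 9.19e-05).

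**Figure D1:**
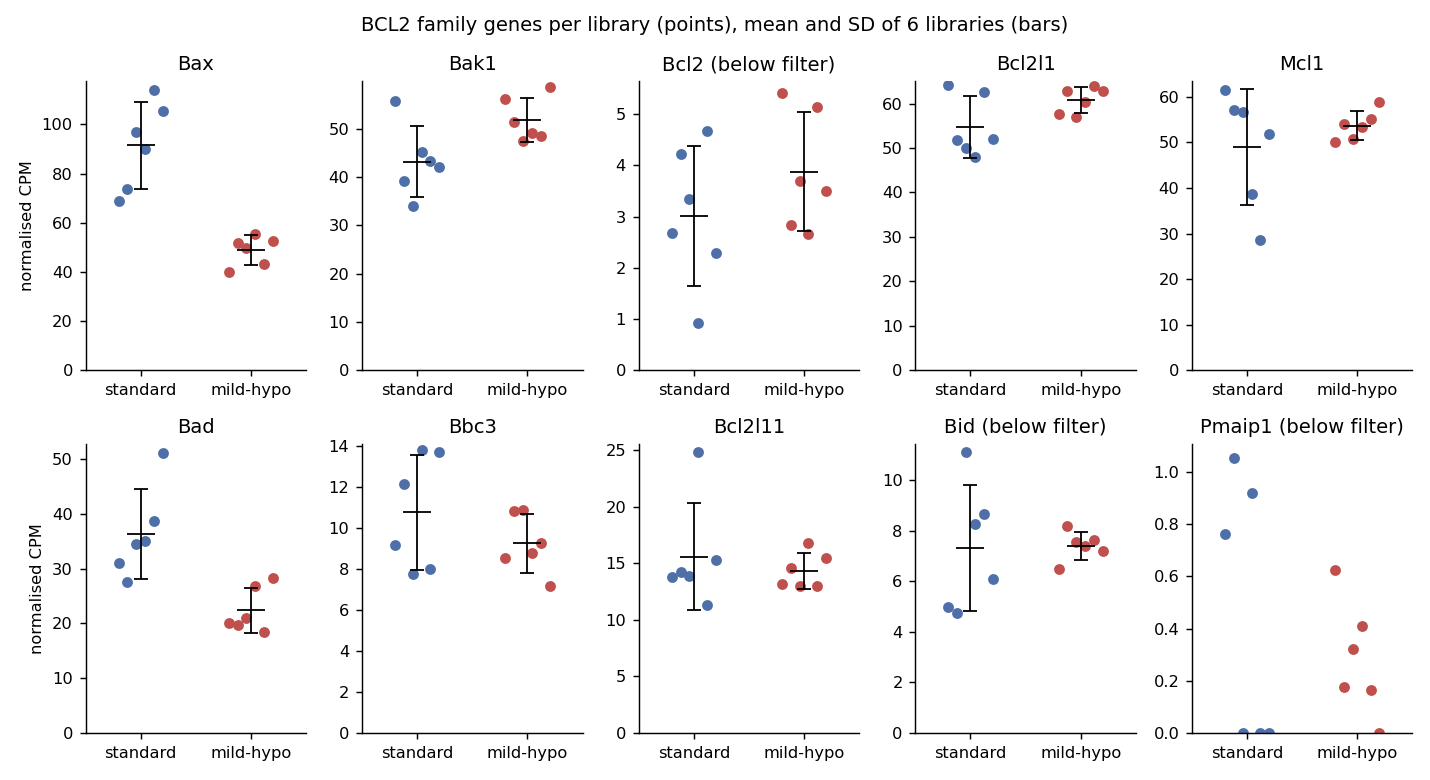
Level of each of the 10 genes (vertical axis, TMM-scaled CPM) in the 6 mild-hypo-OPC and the 6 standard OPC libraries. Each point is a library and each bar the mean ± SD, which is not drawn for Pmaip1. The groups of Bax do not overlap, from 39.8 to 55.5 CPM against 68.8 to 114 CPM.

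The 3 pro-survival genes did not pass a test in either direction over all 12 libraries on the TMM scale, and all of them passed with library size only (log2 fold changes of 0.57 for Bcl2l1, 0.54 for Mcl1 and 0.76 for Bcl2 with a lower filter, beside the median of 0.43 over all genes). Bcl2l1, whose product BCL-XL guards many neural cells, ran from 57.0 to 63.9 CPM (median 61.6) in mild-hypo-OPCs, against 47.9 to 64.2 CPM (median 51.8) in standard OPCs. The groups overlapped, and the log2 fold change was 0.14 (SE 0.09, 95% interval -0.06 to 0.33, edgeR adjusted p = 0.281).

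Mcl1 encodes a pro-survival protein with a short half-life. It ran from 50.1 to 58.8 CPM (median 53.7) in mild-hypo-OPCs, against 28.7 to 61.6 CPM (median 54.3) in standard OPCs. The width of the standard range came from replicates 4 and 5, at 38.7 and 28.7 CPM. The log2 fold change was 0.10 (SE 0.13, 95% interval -0.19 to 0.38, edgeR adjusted p = 0.623). It was -0.17 in replicates 1 to 3 alone and 0.51 in replicates 4 to 6 alone (edgeR adjusted p = 0.435 and 0.0337), and -0.02 without standard replicate 5.

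Bcl2 itself, the founding member of the family, was present at few counts, 13 to 52 per mild-hypo library and 1 to 8 per standard library. Its level ran from 2.66 to 5.42 CPM (median 3.60) and from 0.920 to 4.67 CPM (median 3.01). The groups overlapped. With a lower filter (filterByExpr) that kept the gene, the log2 fold change was 0.34 (SE 0.31, 95% interval -0.34 to 1.03, edgeR adjusted p = 0.473). A two-sided exact permutation test over all 924 assignments of libraries to groups gave p = 0.253 (adjusted p = 0.506 over Bcl2 and Bid).

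Of the BH3-only genes, 1 of 3 tested was called. Bad (ENSRNOG00000021147), whose product binds BCL2 and BCL-XL and is held inactive by phosphorylation downstream of growth factors, was lower in mild-hypo-OPCs. It ran from 18.4 to 28.2 CPM (median 20.5) against 27.5 to 51.1 CPM in standard OPCs (median 34.7). Of the mild-hypo libraries, 5 lay below every standard library, and the remaining one, replicate 6 at 28.2 CPM, lay above only standard replicate 2. The means were 22.4 ± 4.10 and 36.3 ± 8.22 CPM (n = 6 each). The log2 fold change was -0.68 (SE 0.15, 95% interval -1.01 to -0.35, edgeR adjusted p = 0.00242), or 62.4% of the standard level. The call was lost with library size only (-0.25, edgeR adjusted p = 0.143) and with total count in the model (-0.13, SE 0.27, edgeR adjusted p = 0.966). Relative to the median of all genes, the value with library size only was -0.68. A change of scaling shifts all genes by about the same amount, so this value could hardly differ and is no separate check.

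Bcl2l11 encodes BIM, which is released or induced upon withdrawal of survival factors. It ran from 12.9 to 16.8 CPM (median 13.9) in mild-hypo-OPCs, against 11.3 to 24.8 CPM (median 14.1) in standard OPCs. Standard replicate 4 alone lay above 16.8 CPM. The log2 fold change was -0.08 (SE 0.16, 95% interval -0.43 to 0.27, edgeR adjusted p = 0.753), and 0.05 without that library.

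Bbc3 encodes PUMA, which binds all pro-survival members. It ran from 7.19 to 10.9 CPM (median 9.05) in mild-hypo-OPCs, against 7.79 to 13.8 CPM (median 10.7) in standard OPCs, at 12 to 24 counts per standard library. The groups overlapped over most of their range. The log2 fold change was -0.18 (SE 0.18, 95% interval -0.59 to 0.23, edgeR adjusted p = 0.523).

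Bid, which links death receptors to mitochondria once caspase-8 cleaves its product, ran from 6.47 to 8.17 CPM (median 7.46) in mild-hypo-OPCs and from 4.75 to 11.1 CPM (median 7.19) in standard OPCs. The standard range enclosed the mild-hypo range, and the means were 7.40 ± 0.563 and 7.32 ± 2.48 CPM. With the lower filter its log2 fold change was 0.04 (SE 0.21, 95% interval -0.41 to 0.50, edgeR adjusted p = 0.917), and the exact permutation test gave p = 0.729. Pmaip1, which encodes the MCL1-binding protein NOXA, had 12 counts in all mild-hypo libraries together and 5 in all standard libraries together. These correspond to 0.362 unscaled CPM (exact Poisson 95% interval 0.187 to 0.632) and 0.420 unscaled CPM (0.136 to 0.979). The intervals cover counting error only, and a difference in Pmaip1 was not detectable at this depth.

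**Figure D2:**
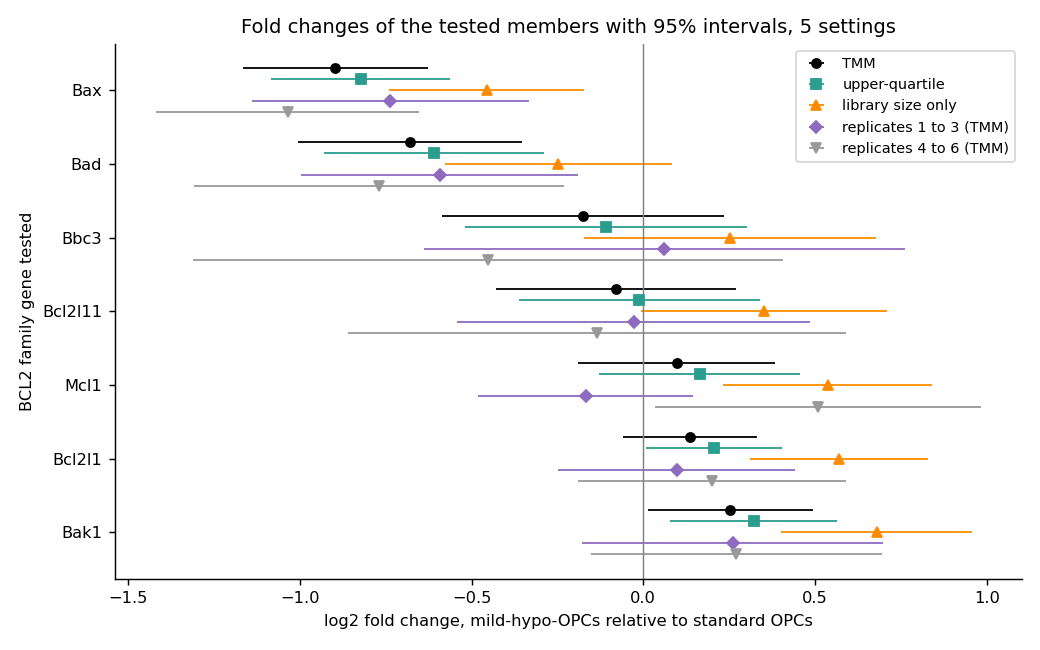
Log2 fold change of each member with its 95% interval (horizontal axis, mild-hypo-OPCs relative to standard OPCs), by scaling and by replicate subset. Bax lies at -0.90 with TMM and at -0.46 with library size only, the setting in which the median of all genes is at 0.43.

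The spread between libraries was compared with that given by counting alone. For Bax the coefficient of variation between libraries was 12.3% in mild-hypo-OPCs and 19.2% in standard OPCs, where counting alone gives 5.89% and 8.45%. For Bcl2l1 the corresponding values were 4.79% and 12.6% against 5.24% and 10.7%, and for Mcl1 5.93% and 25.9% against 5.58% and 11.1%. For Bcl2 in standard OPCs, 45.2% was observed and 44.5% is given by counting.

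Ratios of the counts of 2 members in the same library do not depend on the scaling factors. They are not per-length levels, and they carry no test. How often other pairs of genes separate was not determined. All ratios that separated had Bax or Bad as the numerator, so they are not evidence apart from the calls of these genes. The log2 ratio of Bax to Bcl2l1 was -0.32 ± 0.18 in mild-hypo-OPCs and 0.72 ± 0.35 in standard OPCs (n = 6 each). On the linear scale it ran from 0.678 to 0.919 against 1.07 to 2.02, with no overlap. Bax to Mcl1 also separated, at 0.784 to 1.04 against 1.12 to 3.94, with a log2 difference of -0.57 in replicates 1 to 3 alone and -1.56 in replicates 4 to 6 alone.

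Bax to Bcl2, the ratio most used to describe the balance of the family, was 3.67 ± 0.59 and 4.87 ± 0.70 on the log2 scale. These groups overlapped, and the denominator was as low as 1 count. Bad to Bcl2l1 separated, at 0.289 to 0.449 against 0.484 to 0.985 on the linear scale. Bak1 to Mcl1, Bbc3 to Mcl1, Bcl2l11 to Bcl2 and Pmaip1 to Mcl1 overlapped between the groups.

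Further ratios were chosen after the values were seen. Bax to Bak1, the balance of the effectors, ran from 0.709 to 1.13 in mild-hypo-OPCs, against 1.23 to 2.84 in standard OPCs. Bad to Bak1 did not overlap either, with log2 means of -1.22 ± 0.24 and -0.26 ± 0.40. Bad to Bax overlapped, with log2 means of -1.13 ± 0.19 and -1.33 ± 0.20, so that both lower genes kept similar proportions to each other.

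**Figure D3:**
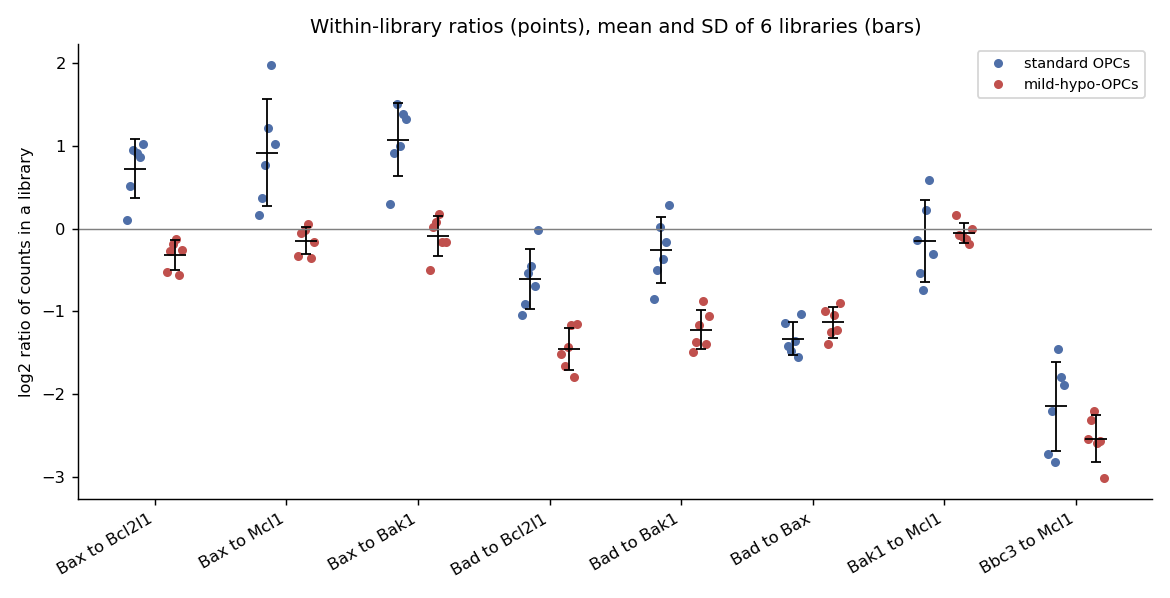
Log2 ratios of the counts of member pairs within each library (vertical axis) in mild-hypo-OPCs and standard OPCs, with 6 libraries each and the mean ± SD. Of the 8 ratios drawn, Bax to Bcl2l1, Bax to Mcl1, Bax to Bak1, Bad to Bcl2l1 and Bad to Bak1 do not overlap between the groups. Bad to Bax, Bak1 to Mcl1 and Bbc3 to Mcl1 do. Bax to Bak1, Bad to Bak1 and Bad to Bax were chosen after the values were seen. Bax to Bcl2, Bcl2l11 to Bcl2 and Pmaip1 to Mcl1, which overlap, are not drawn.

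The wider death machinery was described with 6 lists of 89 genes, 63 of which were tested. Of these, 5 were higher and 11 lower in mild-hypo-OPCs, and their median log2 fold change was -0.02. These counts are near the shares of all genes tested, 7.00% called higher and 17.0% lower, and are not a result about these genes. The lists were chosen with earlier results of these data known, so the counts per list below are descriptions only. With library size only 41 were called higher and 0 lower, so the directions below hold on the TMM scale. In that setting Diablo, Vdac3, Mtch2, Slc25a5, Mdm2 and Ccng1 had log2 fold changes above 0, between 0.04 and 0.18. All were under the median of 0.43. Bnip3l, Birc6, Atf4, Birc5 and Bnip3 stayed below 0 there, at -0.02, -0.02, -0.04, -0.08 and -0.25, and were not called.

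Among the other BCL2 family genes, 2 of 7 tested were lower, beside 17.0% of all genes. Both encode hypoxia-inducible mitophagy receptors of the outer mitochondrial membrane. Bnip3 had 51.7 ± 5.72 CPM in mild-hypo-OPCs and 83.9 ± 18.8 CPM in standard OPCs (log2 fold change -0.69, SE 0.12, edgeR adjusted p = 0.000554). Bnip3l had 68.9 ± 4.97 and 94.9 ± 6.87 CPM (log2 fold change -0.45, SE 0.08, edgeR adjusted p = 0.000478). In replicates 1 to 3 alone Bnip3 kept its call and Bnip3l did not (edgeR adjusted p = 0.0349 and 0.0854).

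The libraries of Bnip3 and of Bnip3l did not overlap between groups, as for 5.40% of all genes in this direction. Bok, an effector-like gene, had a log2 fold change of -0.38 (edgeR adjusted p = 0.238), and the BH3-only gene Bmf 0.18 (edgeR adjusted p = 0.295). Bcl2l2, Bcl2l13 and Becn1 had log2 fold changes of 0.03, 0.04 and -0.13 and did not pass the test.

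Downstream of the mitochondria, 3 of 14 tested genes of the apoptosome, caspases and caspase inhibitors were lower, near the 17.0% of all genes. These were Diablo (SMAC, an antagonist of the inhibitors) at -0.34, Birc6 at -0.46 and Birc5 (survivin) at -0.51 (edgeR adjusted p = 0.00948, 0.0120 and 0.0487). Birc5 lost its call in 10 of 12 fits that left out 1 library, with upper-quartile scaling and with limma-voom.

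Of 9 mitochondrial partners, 3 were lower, beside 17.0% of all genes. Vdac3, a channel of the outer membrane, had a log2 fold change of -0.38 (edgeR adjusted p = 0.00153), and Mtch2, which helps recruit BID, -0.40 (edgeR adjusted p = 0.0170). Slc25a5, an ADP/ATP carrier, stood at -0.32 (edgeR adjusted p = 0.0386) and lost its call with upper-quartile scaling and in 8 of 12 fits that left out 1 library. Mtch2 lost its call in 2 of those 12 fits.

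The list of death receptor genes held 12, of which 5 were tested. Of these 5, 3 were higher, beside 7.00% of all genes, which is a description of a list not chosen blind to these data. Tnfrsf21 (death receptor 6) had 56.9 ± 2.12 and 42.3 ± 5.98 CPM (log2 fold change 0.42, edgeR adjusted p = 0.00287). Fadd, an adaptor in death receptor signalling, had a log2 fold change of 0.62 and Tnfrsf1a, the receptor of TNF, of 0.32 (edgeR adjusted p = 0.0120 and 0.0124).

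The groups did not overlap for any of these 3 genes, as for 2.94% of all genes in this direction. Each kept its call in 12 of 12 fits that left out 1 library. In replicates 1 to 3 alone, Tnfrsf1a, Tnfrsf21 and Fadd were not called (edgeR adjusted p = 0.0711, 0.0831 and 0.157). Their log2 fold changes there were 0.43, 0.40 and 0.61. In the other replicates alone, only Tnfrsf21 was called (edgeR adjusted p = 0.0269, against 0.297 for Tnfrsf1a and 0.138 for Fadd). After thinning to the smallest total, 1 of the 5 tested genes was called higher. With total count in the model it was 0 of 5, where 0 of all genes were called higher. Casp8, which cleaves BID, had at most 4 counts in any library, and Fas at most 15.

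Among DNA damage and stress regulators, 3 of 15 tested genes were lower and 1 was higher, near the 17.0% and 7.00% of all genes. Atf4, a transcription factor of the integrated stress response, fell by 0.48 on the log2 scale (edgeR adjusted p = 0.000333). Mdm2, a ubiquitin ligase, and Ccng1, a cyclin, had log2 fold changes of -0.33 and -0.25, and Zmat3, an RNA-binding protein, 0.30 (edgeR adjusted p = 0.0193, 0.0403 and 0.0480).

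Mdm2, Ccng1 and Zmat3 lost their calls in 4, 9 and 8 of the 12 leave-one-out fits. Mdm2 and Ccng1 also lost theirs with upper-quartile scaling. Zmat3 lost its call with limma-voom (adjusted p = 0.0513), and Ccng1 with the replicate number in the model (edgeR adjusted p = 0.0694). The sixth list, of kinases, ligases and adaptors that act on BCL2 proteins, had 13 tested genes with a median log2 fold change of 0.06.

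**Figure D4:**
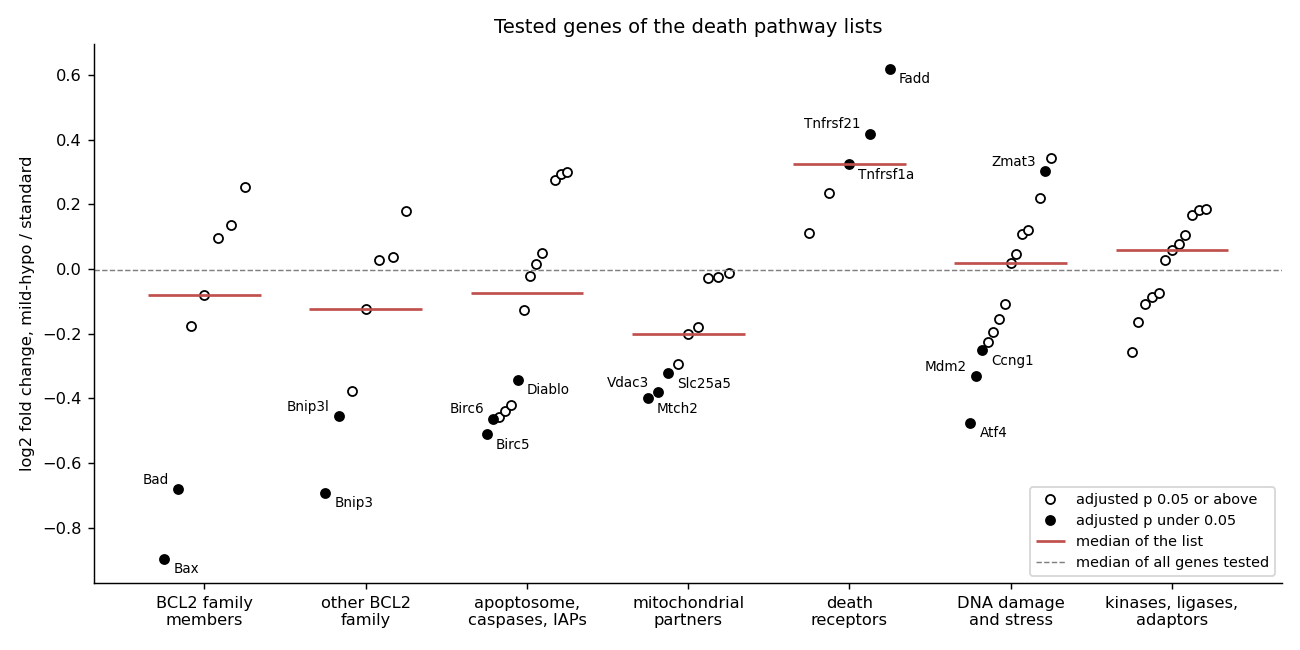
Log2 fold change of tested genes (vertical axis, mild-hypo-OPCs relative to standard OPCs) in the BCL2 family members and the 6 pathway lists, without 3 genes that are not reported here. Filled points have an adjusted p under 0.05 and red lines are medians over each whole list, of which that of the death receptors, at 0.32, is the furthest above the median of all genes.

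Across all tested genes, log2 fold change went with gene span in the RefSeq annotation of GRCr8, which was matched for 8544 genes (Spearman's rho 0.30 across genes, which are not independent replicates). Bax spans 5435 bases and lay in the shortest of 5 equal classes, where the median log2 fold change was -0.26 and 37.3% of genes were called lower. The 5th to 95th percentile of that class ran from -1.08 to 0.38 and included the Bax value.

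Bad spans 9316 bases, close to Bak1 (9282) and Bbc3 (9217), and these lay in the class whose median was -0.05, with 21.1% called lower. Bad, at -0.68, was near the lower end of that class, whose 5th percentile was -0.71. Mcl1, Bcl2l1 and Bcl2l11 lay in longer classes with medians of 0.02 and 0.08. The part of gene span in the result was not tested.

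**Figure D5:**
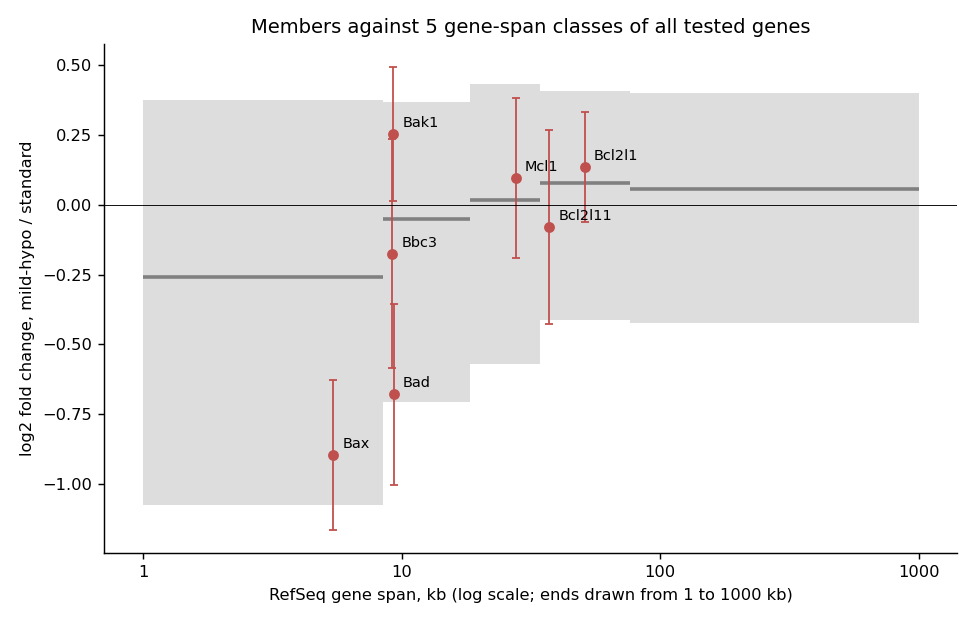
Log2 fold change of tested genes by gene span (horizontal axis, kb on a log scale) for the 7 tested members (red points, 95% intervals), over the median (grey line) and 5th to 95th percentile (grey area) of each of 5 span classes of all tested genes. Bax, in the shortest class, lies at -0.90 where the class median is -0.26.

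The genes whose library-to-library deviations were most like those of Bax, over 12 libraries and 7512 genes, were Rps23, Swi5 and Tsen34 (Pearson's r of 0.97 each, given as a description). Rps23 encodes a ribosomal protein. The log2 fold changes were -0.71 for Rps23 and for Swi5, and -0.31 for Tsen34. For Bak1 the most similar genes were Sharpin, Morf4l1-ps4 and ENSRNOG00000063484, with r of 0.87, 0.85 and 0.85. Their log2 fold changes were 0.16, -0.10 and 0.38, and so differed in direction.

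Markers of other cell types were summed per library. The calls below stand beside 7.00% of all genes called higher and 17.0% lower. Differentiating oligodendrocyte markers summed to 15865 to 16624 CPM in mild-hypo-OPCs and 11112 to 15528 CPM in standard OPCs, and 5 of 8 were called higher. Mbp, the largest part of the sum, was not called (edgeR adjusted p = 0.0555), nor were Mog and Bcas1. Of the 8, 0 were called in replicates 1 to 3 alone. With total count in the model 0 of the 8 were called, where 0 of all genes were called higher. Neuronal markers summed to 343 to 402 against 256 to 334 CPM, with 1 of 4 tested called higher. Microglial markers summed to 30.1 to 45.8 against 17.5 to 33.3 CPM, with 1 of 2 tested called higher. The sums of the oligodendrocyte and neuronal markers did not overlap between groups, and the other sums did. How often other sums of genes separate was not determined. Astrocyte markers summed to 464 to 575 against 447 to 506 CPM, with 1 of 5 tested called higher and 1 lower. Endothelial and mesenchymal markers, none of which passed the filter, summed to 0.664 to 2.49 against 0 to 2.22 CPM, with Cdh5 at 0. The part of these cells in the lower Bax and Bad levels was not tested.

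Sequence upstream of the start site, from RefSeq (GRCr8), was matched for all of the genes but Bax and Bbc3, with 4 windows for Bcl2l1 and 1 for each of the others. A gene was counted if any of its windows held the letters, whereas the shares are per window. In the 250 bases before the start, on either strand, ACGTG, the core letters of the hypoxia response element, occurred for Bcl2 and Bcl2l1, against 16.6% of 33469 windows of all genes. GGGCGG occurred for 5 of the 8 (Bak1, Bcl2l11, Bid, Mcl1 and Pmaip1) against 30.5%, TATAAA for Bcl2 against 12.9%, and CCAAT for Bcl2l1 and Bcl2l11 against 34%. CACGTG, which contains ACGTG, occurred in 0 of 8 against 5.59%. The window of Bcl2 (chr13:23366901-23367150, minus strand, 33.6% G and C) is shown because it alone among the members held ACGTG together with TATAAA, both in capitals.
Bcl2: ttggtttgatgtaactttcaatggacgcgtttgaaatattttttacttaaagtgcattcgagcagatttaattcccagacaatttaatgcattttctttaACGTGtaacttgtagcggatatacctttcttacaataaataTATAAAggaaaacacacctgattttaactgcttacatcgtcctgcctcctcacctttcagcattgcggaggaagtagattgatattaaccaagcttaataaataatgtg
These letters describe the window and do not show a binding site, and Bcl2 mRNA differed by less than the spread between libraries.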

How the data were processed

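Bulk RNA-seq of 12 rat OPC libraries was used, grouped by the labels. The submitters' processing notes name Trimmomatic 0.36, FastQC 0.11.9, STAR 2.7.9a, RSEM 1.3.3 and the genome mRatBN7.2. The authors deposited whole-number gene counts without normalization, and how RSEM's estimates were made whole is not given in the sources used here. All columns were used (0 unused). Counts of libraries of a group differed by more than sampling noise (chi-square per degree of freedom at least 3.22).

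Here, genes over a CPM of 10 in 1 or more libraries were tested in R 4.3.3 with edgeR 4.0.16 (TMM, glmQLFit, glmQLFTest, condition only) and Benjamini-Hochberg adjustment at 0.05 over all genes tested. limma 3.58.1 (voom), DESeq2 1.42.0, other scalings, filters, depth corrections and subsets were alternatives. Ratios used counts + 0.5. Intervals of fold changes over all libraries use 10 degrees of freedom, and those of the replicate subsets use fewer. Exact permutation tests used SciPy 1.17.1, and figures matplotlib 3.10.9. The fits were tested on simulated data. The members and lists were chosen with earlier results of these data known. Named genes are all members, the other BCL2 family genes tested, up to 4 called genes with the lowest p per list and the 3 genes most like Bax and Bak1. Casp8 and Fas were named after their values were seen. A few list genes are not reported here. Fits of Bcl2 and Bid with filterByExpr were added after seeing the data.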

Additional observations from a re-analysis of the deposited data

Results flagged for a closer look

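Bcl2l11 in standard OPCs stood out for 1 library: replicate 4, at 24.8 CPM, lay far above the other 5 standard libraries by Dixon's criterion. Of 42 groups of 6 libraries examined for the members and the ratios, 1 was marked in this way, and chance marks about 1 in 20. Replicate 4 was the library with the lowest total, and 27 counts stood behind its value.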

How the results depend on the processing

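Settings were changed one at a time. With total count (log2) in the model, log2 fold changes were -0.23 for Bax, -0.13 for Bad, -0.14 for Mcl1, 0.077 for Bbc3, 0.38 for Bcl2l11 and -0.59 for Bcl2, 0 members were called lower, and the whole table had 0 genes higher and 43 lower (217 and 488 at an unadjusted p under 0.05), with 0 and 0 in the pathway lists. With library size only, the values were -0.25 for Bad, 0.68 for Bak1, 0.57 for Bcl2l1, 0.54 for Mcl1, 0.25 for Bbc3 and 0.35 for Bcl2l11, 3 members were higher and 1 lower, and the counts were 5515 higher and 405 lower in all and 41 and 0 in the lists. With upper-quartile scaling Bak1 was at 0.32, 1 member was higher, and 1136 genes were higher in all, with 8 higher and 7 lower in the lists. Thinning to the smallest total gave 385 higher genes, and 1 higher and 6 lower in the lists.

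In replicates 1 to 3 alone Mcl1 was at -0.17 and Bbc3 at 0.061, 53 genes were higher and 343 lower, and the lists had 0 and 2. The log2 ratios to Mcl1 differed by -0.57 for Bax, 0.47 for Bak1 and 0.23 for Bbc3. In replicates 4 to 6 alone Mcl1 was at 0.51, 1 member was higher, the lists had 2 higher, and those ratios differed by -1.56, -0.27 and -1.01. Leaving out 1 library gave 0.19 to 0.36 for Bak1, -0.019 to 0.18 for Mcl1, -0.14 to 0.053 for Bcl2l11, 0 to 1 members higher and 6 to 14 list genes lower, the 6 without mild-hypo replicate 1 or replicate 5. Bax kept its call in all 12 of these fits (-0.98 to -0.81), as did Bad (-0.75 to -0.57). The cause of these changes was not tested.

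The replicate numbers did not pair the samples: correlations of same-numbered libraries ran from -0.28 to 0.30, and 1 of 6 matched best with its own number. With the replicate block, Bax was at -0.90 and Bad at -0.69, 2 members were lower, 572 genes higher and 1471 lower. Of all values recomputed, 459 stayed the same (direction and side of the threshold, or, without a test, within the replicate spread or 1.5 times), 31 moved, 12 reversed, 7 newly passed the threshold and 3 no longer passed it. Standard libraries had the lower depth, which limits Bcl2, Bid and Pmaip1 most.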
